A study of Mus musculus with 21 samples.

Results

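Extracellular adenosine is made and removed in a short chain of reactions at the cell surface. CD39, encoded by *Entpd1*, cleaves ATP and ADP to AMP, and CD73, encoded by *Nt5e*, cleaves AMP to adenosine. Adenosine then binds G protein-coupled receptors, of which those encoded by *Adora2a* and *Adora2b* raise cyclic AMP and dampen T cell responses, and adenosine deaminase, encoded by *Ada*, converts it to inosine. In mice CD73 is carried by naive CD8+ T cells and regulatory T cells, CD39 by regulatory and chronically stimulated T cells, and in humans loss of adenosine deaminase leads to severe combined immunodeficiency.

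The genes *Nt5e*, *Entpd1*, *Adora2a*, *Adora2b* and *Ada* were listed by name for their role, and each was to be represented by the transcript cluster of that symbol with the highest mean level over 21 arrays. Of the 5 listed genes, *Nt5e*, *Entpd1* and *Ada* were measured, each by 1 transcript cluster, among 19505 genes in all. The receptor genes *Adora2a* and *Adora2b* are not analysed here, so the results cover the production and removal of adenosine and not its sensing.

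RNA on the arrays came from CD8+ T cells, and the spleens were those of wildtype mice. The T cells were activated with CD3/CD28 beads and kept for 48 h in 1 of 3 media, and CD8+ cells were then isolated again by magnetic separation. The first medium was the filtered supernatant of WEHI 3B cells, a single mouse myelomonocytic leukaemia line that stands here for acute myeloid leukaemia (AML), the second was the filtered supernatant of dendritic cells derived from bone marrow (DC), and the third was fresh medium. Each medium had 7 biological replicates, all cells were activated in the same way, and no unactivated cells were among the samples. The labels give neither the age or strain of the mice nor what a replicate number shares across media. Since separate mice or cultures are not stated either, the p-values measure the spread between these samples, which may be in part technical.

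The labelled cell type was checked against marker genes. The 7 measured T cell and CD8 markers had a mean log2 level of 10.87 to 11.11 on the AML arrays, 10.85 to 11.12 on the DC arrays and 10.87 to 11.06 on the fresh-medium arrays. A description field of the labels speaks of CXCL12-abundant reticular cells in place of T cells, and the 5 measured reticular stromal markers averaged 4.79 to 4.97, 4.66 to 4.89 and 4.78 to 5.00 in the same order of media. The arrays of AML replicates 4 and 5 deviated in the most similar way. Their deviations from the group mean over all genes correlated at r = 0.49, against at most 0.36 for the other pairs of arrays. The size of these deviations (root mean square) was 0.22 and 0.23, inside the 0.16 to 0.27 of the other 19 arrays. Where leaving out AML replicates 4 and 5 ended a call or moved a difference clearly, the value without them is given beside it.

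The start regions of the measured genes are shown as the DNA next to which the compared transcripts begin. Each line is the 250 bases before an annotated transcription start in RefSeq's GRCm38.p6 annotation, written 5′ to 3′ in the direction of the gene. Capitals mark the core letters that hypoxia-inducible factors (HIF) can bind, ACGTG or GCGTG, searched on both strands.
*Nt5e*, chr9:88327359-88327608, plus strand: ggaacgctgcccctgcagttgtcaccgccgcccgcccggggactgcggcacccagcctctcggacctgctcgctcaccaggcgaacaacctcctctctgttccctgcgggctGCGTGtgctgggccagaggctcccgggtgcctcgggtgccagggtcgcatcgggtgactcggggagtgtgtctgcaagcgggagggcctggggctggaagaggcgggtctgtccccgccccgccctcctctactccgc
*Entpd1*, upstream start, chr19:40612116-40612365, plus strand: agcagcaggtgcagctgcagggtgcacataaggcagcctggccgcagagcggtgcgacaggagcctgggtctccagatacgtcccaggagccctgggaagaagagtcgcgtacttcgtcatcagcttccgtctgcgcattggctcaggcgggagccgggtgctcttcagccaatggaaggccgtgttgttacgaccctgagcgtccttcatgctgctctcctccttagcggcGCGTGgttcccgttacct
*Entpd1*, downstream start, chr19:40659520-40659769, plus strand: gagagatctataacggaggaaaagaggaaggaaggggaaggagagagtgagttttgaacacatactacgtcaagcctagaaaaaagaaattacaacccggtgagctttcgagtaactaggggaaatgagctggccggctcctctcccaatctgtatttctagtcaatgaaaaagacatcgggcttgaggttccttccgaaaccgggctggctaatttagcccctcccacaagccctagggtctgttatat
*Ada*, chr2:163750240-163750489, minus strand: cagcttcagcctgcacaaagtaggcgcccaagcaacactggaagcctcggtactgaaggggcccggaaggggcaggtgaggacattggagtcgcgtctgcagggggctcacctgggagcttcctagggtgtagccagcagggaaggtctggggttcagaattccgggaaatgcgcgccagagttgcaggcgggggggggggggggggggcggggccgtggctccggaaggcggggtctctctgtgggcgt

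The HIF core letters occurred once before the *Nt5e* start, beginning 138 bases upstream of it, and once before the upstream *Entpd1* start, beginning 18 bases upstream. Neither the downstream *Entpd1* start nor the *Ada* start had a match in these 250 bases. Of all 32851 such windows in the table, 38.6% held at least 1 match. The core of the cyclic AMP response element, TGACG on either strand, occurred 1 time before each *Entpd1* start and in 17.8% of all windows, and the SMAD palindrome GTCTAGAC in none of the 4 windows and in 0.167% of all. The 2 core motifs can overlap in sequences such as TGACGTG. A match of so few letters is a description of the sequence and not a bound site.

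*Nt5e*, the last step of adenosine production, rose in AML-conditioned medium relative to fresh medium. The gene lies on chromosome 9 from 88327609 to 88372089. Its RMA level, on the log2 scale, had a lowest, median and highest value of 6.06, 6.34 and 7.09 on the AML arrays, 5.60, 5.94 and 6.32 on the DC arrays, and 5.57, 5.96 and 6.13 on the fresh-medium arrays. All but 1 of the 7 AML arrays lay above every fresh-medium array, and replicate 6, the lowest, fell within their range.

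The mean of *Nt5e* was 6.51 ± 0.40 in AML-conditioned medium and 5.88 ± 0.22 in fresh medium (SD, n = 7 each), a difference of 0.63 on the log2 scale (SE 0.15, 95% confidence interval 0.33 to 0.93), or 1.55-fold. It passed limma's moderated test at a Benjamini-Hochberg adjusted p = 0.0201 over all genes. An exact permutation test of the single gene over the same arrays gave p = 0.00175, two-sided and unadjusted, and p = 0.0932 when such tests were adjusted over all genes. Among all genes 2.77% were called in this comparison with limma at an adjusted p under 0.05, 1.3% in the higher and 1.48% in the lower direction. The smallest p that 7 arrays against 7 allow in the exact test is 0.000583, and it called 0 of 19505 genes after adjustment, against 541 with limma and 3100 with limma at an unadjusted p under 0.05. With this floor the adjusted exact test can call a gene only when many genes lie near it. Its lack of calls thus says little about a single gene.

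The size of the *Nt5e* difference depended on 2 arrays. AML replicates 4 and 5 were at 7.09 and 7.03, AML replicates 1, 2 and 3 at 6.34, 6.48 and 6.34, and AML replicates 6 and 7 at 6.06 and 6.21. The first 2 arrays were the highest of all 21, and replicates 6 and 7 were the lowest of their medium. Without replicates 4 and 5 the difference was 0.41 (limma, adjusted p = 0.151), and the call also ended without replicate 4 alone (0.53, adjusted p = 0.0532) or replicate 5 alone (0.54, adjusted p = 0.0610). Within replicates 1 to 3 the difference from fresh medium was 0.38 and within replicates 4 to 7 it was 0.82, sets that were known from earlier results of these data to differ and that the labels do not name as batches.

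**Figure D1:**
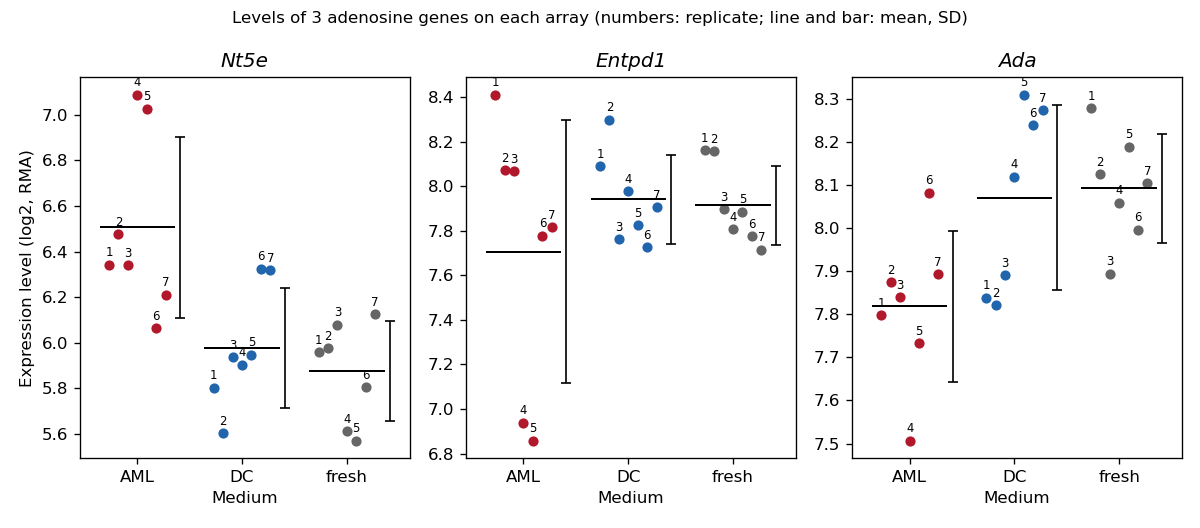
RMA level (log2, y axis) of *Nt5e*, *Entpd1* and *Ada* on each of the 21 arrays by medium (x axis: AML, DC, fresh), with replicate numbers, the mean as a line and the SD as a bar. AML replicates 4 and 5 are at the top of *Nt5e* (7.09 and 7.03) and at the bottom of *Entpd1* (6.94 and 6.86), while 6 of 7 AML arrays are below every fresh-medium array for *Ada*.

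*Entpd1*, which acts one step before *Nt5e*, did not pass in any comparison. The gene lies on chromosome 19 from 40612366 to 40741602. Its lowest, median and highest log2 levels were 6.86, 7.82 and 8.41 on the AML arrays, 7.73, 7.91 and 8.30 on the DC arrays, and 7.72, 7.89 and 8.16 on the fresh-medium arrays. The AML arrays thus held both the 2 lowest values and the highest value of all arrays. AML replicates 4 and 5 were at 6.94 and 6.86, and AML replicates 1, 2, 3, 6 and 7 were at 8.41, 8.07, 8.07, 7.78 and 7.82. Replicates 4 and 5 lay below every DC and fresh-medium array, and 4 of the other 5 AML arrays lay inside the fresh-medium range, with replicate 1 above it.

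The mean of *Entpd1* was 7.71 ± 0.59 in AML-conditioned medium, 7.94 ± 0.20 in DC-conditioned medium and 7.91 ± 0.18 in fresh medium (SD, n = 7 each). AML-conditioned minus fresh medium was -0.21 on the log2 scale (SE 0.18, 95% confidence interval -0.57 to 0.16, limma adjusted p = 0.627; exact permutation p = 0.394). Without AML replicates 4 and 5 the difference turned to 0.11 (adjusted p = 0.795). Within replicates 1 to 3 it was 0.11, and within replicates 4 to 7 it was -0.45. The standard error rests on the spread pooled over the 3 media, which for this gene was uneven.

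*Ada*, the enzyme that removes adenosine, was lower on most AML arrays but did not pass. The gene lies on chromosome 2 from 163726571 to 163750239. Its lowest, median and highest log2 levels were 7.51, 7.84 and 8.08 on the AML arrays, 7.82, 8.12 and 8.31 on the DC arrays, and 7.89, 8.10 and 8.28 on the fresh-medium arrays. In 6 of 7 AML arrays the level was below every fresh-medium array, and AML replicate 6, at 8.08, was inside their range. For AML replicate 7 the margin was slight, since it and fresh-medium replicate 3 were both at 7.89 after rounding.

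The mean of *Ada* was 7.82 ± 0.18 in AML-conditioned medium and 8.09 ± 0.13 in fresh medium (SD, n = 7 each). The difference was -0.27 on the log2 scale (SE 0.09, 95% confidence interval -0.47 to -0.08), with a limma adjusted p = 0.116 and an exact permutation p = 0.00524, which adjusted over all genes was 0.138. Replicates 1 to 3 and 4 to 7 gave like mean differences, -0.26 and -0.28, but the AML arrays of the later set were uneven. AML replicates 4 and 5 had the 2 lowest *Ada* levels of all arrays, 7.51 and 7.73, and AML replicates 6 and 7 were at 8.08 and 7.89. Without AML replicates 4 and 5 the difference was -0.19 (limma adjusted p = 0.482). Of the 3 genes, 1 was called in this comparison and 2 had an unadjusted limma p under 0.05, against 2.77% and 15.9% of all genes. In none of the 3 were the AML and fresh-medium arrays fully separate, which was the case for 0.795% of all genes.

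**Figure D2:**
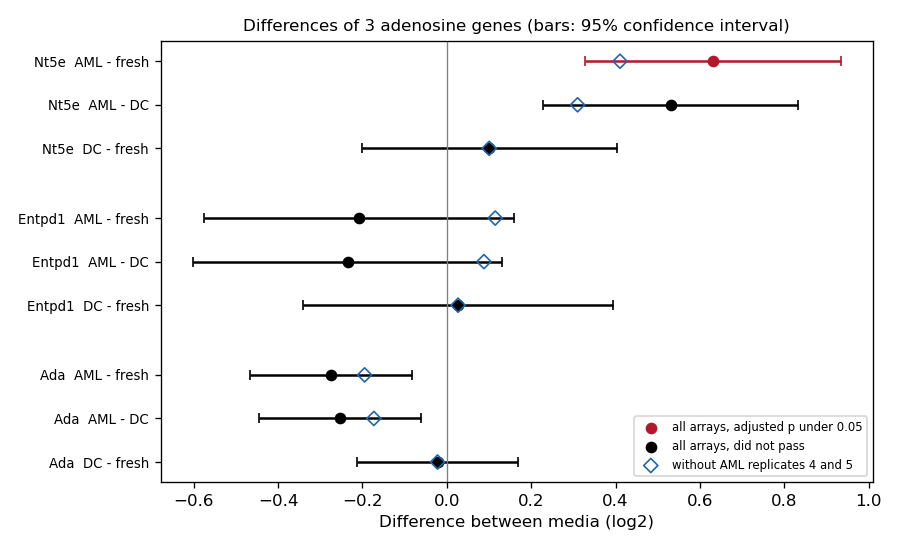
Difference between media (log2, x axis) for each gene and comparison, with 95% confidence intervals from limma as bars and the value without AML replicates 4 and 5 as open diamonds. *Nt5e* between AML-conditioned and fresh medium (0.63) is the only difference that passed, and leaving out the 2 arrays moves it to 0.41 and both *Entpd1* differences of AML-conditioned medium to above 0.

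The comparison of AML-conditioned with DC-conditioned medium shares its AML arrays with the one above and sets 2 supernatants against each other. Here *Nt5e* averaged 6.51 ± 0.40 in AML-conditioned and 5.98 ± 0.26 in DC-conditioned medium, a difference of 0.53 on the log2 scale (SE 0.15, 95% confidence interval 0.23 to 0.83). It missed the threshold narrowly, with a limma adjusted p = 0.0522, and the exact permutation p was 0.00641. Without AML replicates 4 and 5 the difference was 0.31 (limma adjusted p = 0.389). In 5 of 7 AML arrays *Nt5e* lay above every DC array, while AML replicates 6 and 7, at 6.06 and 6.21, lay below DC replicates 6 and 7, both at 6.32.

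*Ada* averaged 7.82 ± 0.18 in AML-conditioned and 8.07 ± 0.22 in DC-conditioned medium, a difference of -0.25 (SE 0.09, adjusted p = 0.175), and of -0.17 without AML replicates 4 and 5 (adjusted p = 0.629). *Ada* did not differ evenly: AML-conditioned minus DC-conditioned medium was -0.01 within replicates 1 to 3 and -0.43 within replicates 4 to 7, where all 4 AML arrays lay below all 4 DC arrays. How many of all genes separate within such a set was not counted. Over all 7 arrays of each medium *Ada* overlapped, with 3 AML arrays below every DC array. *Entpd1* differed by -0.23 (SE 0.18, 95% confidence interval -0.60 to 0.13, adjusted p = 0.614), and by 0.09 without AML replicates 4 and 5. With limma 0 of the 3 genes passed in this comparison, 2 had an unadjusted p under 0.05, and the exact test adjusted over all genes called 0. Over all genes 2.39% were called with limma, 1.13% higher and 1.26% lower, and 14.3% had an unadjusted p under 0.05.

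Between DC-conditioned medium, from cells that are not leukaemic, and fresh medium none of the 3 genes passed. *Nt5e* differed by 0.10 on the log2 scale (SE 0.15, 95% confidence interval -0.20 to 0.40), *Entpd1* by 0.03 (SE 0.18, interval -0.34 to 0.39) and *Ada* by -0.02 (SE 0.09, interval -0.21 to 0.17). These intervals allow a rise of *Nt5e* of up to 0.40 and so do not show that the media act alike. With limma 0% of all genes were called in this comparison, as were 0 of the 3 genes, of which 0 had an unadjusted p under 0.05, and 6.41% of all genes had one. The exact test called 0 genes as well.

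For *Nt5e* and *Ada* this comparison had opposite signs in replicates 1 to 3 and in replicates 4 to 7. These sets were chosen with earlier results of these data known, and the labels do not name them as batches. In replicates 1 to 3 DC-conditioned minus fresh medium was -0.23 for *Nt5e* and -0.25 for *Ada*, and all 3 DC arrays lay below all 3 fresh-medium arrays for both genes. For *Ada* the margin was slight, since replicate 3 of both media was at 7.89 after rounding. In replicates 4 to 7 it was 0.35 for *Nt5e* and 0.15 for *Ada*, with 3 of 4 DC arrays above all fresh-medium arrays of the set for *Ada* and 2 of 4 for *Nt5e*. Within DC-conditioned medium, *Ada* was at 7.82 to 7.89 in replicates 1 to 3 and at 8.12 to 8.31 in replicates 4 to 7, ranges that do not meet. *Entpd1* differed by -0.02 and 0.06 in the 2 sets. The difference between the sets was not tested, and how many of all genes separate in sets this small was not counted.

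The arrays with the most *Nt5e* had the least *Entpd1*. AML replicates 4 and 5 combined the 2 highest *Nt5e* values, 7.09 and 7.03, with the 2 lowest *Entpd1* values, 6.94 and 6.86. Among the other 19 arrays *Nt5e* ran from 5.57 to 6.48 and *Entpd1* from 7.72 to 8.41. AML replicates 1, 2 and 3 had *Nt5e* above every DC and fresh-medium array while their *Entpd1* was 8.07 to 8.41. The Pearson correlation of *Nt5e* with *Entpd1* was -0.64 over all 21 arrays and 0.05 over the 19 without AML replicates 4 and 5. The inverse pattern was thus that of these 2 arrays.

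**Figure D3:**
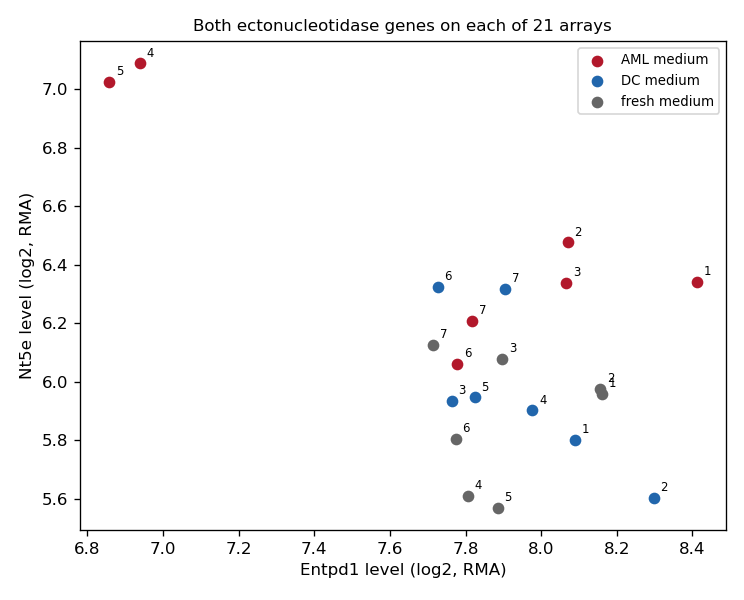
Level of *Nt5e* (log2 RMA, y axis) against *Entpd1* (log2 RMA, x axis) on each of 21 arrays, coloured by medium and labelled with the replicate number. AML replicates 4 and 5 lie alone at the upper left, with *Entpd1* at 6.94 and 6.86 and *Nt5e* at 7.09 and 7.03.

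Markers of other cells were set beside these values, since CD73 and CD39 are also carried by regulatory T cells, B cells and myeloid cells. In these bulk samples a change in the share of a cell type and a change in RNA per cell cannot be told apart. Over all genes limma called 2.77% between AML-conditioned and fresh medium. The marker lists are short, and their counts were not tested against that share. Of the 3 CD4 T cell markers 1 was higher after AML-conditioned medium than in fresh medium (*Cd4*, the helper T cell coreceptor, by 0.79, SE 0.18, limma adjusted p = 0.0150), and the mean of the list was 6.39 to 6.99 on the AML arrays, 6.17 to 6.75 on the DC arrays and 6.02 to 6.56 on the fresh-medium arrays. *Cd4* differed by as much, 0.81, when AML replicates 4 and 5 were left out, but did not pass there (adjusted p = 0.0622). None of 5 measured regulatory T cell markers passed, and their mean was 8.84 to 9.31 on the AML arrays, 8.49 to 8.92 on the DC arrays and 8.58 to 9.05 on the fresh-medium arrays. Of these markers, named after their values were seen, *Lrrc32*, a surface protein of activated regulatory T cells, differed by 0.89 between AML-conditioned and fresh medium (SE 0.27, limma adjusted p = 0.0750), and *Il2ra*, the interleukin receptor chain CD25 that activated T cells also carry, by 0.53 (SE 0.16, adjusted p = 0.0725). The inhibitory receptor gene *Ctla4* differed by -0.20 (SE 0.12, adjusted p = 0.445), *Ikzf2* by 0.09 and *Tnfrsf18* by 0.06. On leaving out the same arrays *Lrrc32* differed by 0.56 (adjusted p = 0.439) and *Il2ra* by 0.55 (adjusted p = 0.210). *Ctla4* then differed by -0.02 (adjusted p = 0.977), *Ikzf2* by 0.01 and *Tnfrsf18* by -0.02. Of 4 natural killer markers 1 passed (*Eomes*, a transcription factor also active in CD8+ T cells, by 0.71, SE 0.14, limma adjusted p = 0.00844), with list means of 4.66 to 5.09, 4.54 to 4.83 and 4.55 to 4.83 in that order of media. *Eomes* differed by 0.50 without AML replicates 4 and 5 and did not pass (adjusted p = 0.0705). Against DC-conditioned medium *Eomes* was higher by 0.79 (SE 0.14, limma adjusted p = 0.00457). There it still passed without those arrays (0.59, adjusted p = 0.0345). No CD4 or regulatory T cell marker passed between AML-conditioned and DC-conditioned medium.

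None of the 5 B cell, 7 macrophage, 7 dendritic cell or 7 neutrophil and myeloid leukaemia markers passed. The macrophage list averaged 3.82 to 4.11 on the AML arrays, 3.85 to 4.11 on the DC arrays and 3.89 to 4.11 on the fresh-medium arrays, and the B cell list 4.52 to 4.76, 4.42 to 4.73 and 4.55 to 5.00. On AML replicates 4 and 5 the CD4 list averaged 6.67 and 6.86 and the regulatory T cell list 9.13 and 9.31, against 6.39 to 6.99 and 8.84 to 9.24 on the other AML arrays. The part of such cells in the *Nt5e* difference was not tested.

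The wider adenosine pathway was described by 5 lists with measured members, holding 66 genes. They held 12 ectonucleotidases and related enzymes, 13 genes of adenosine removal and transport, and 13 genes of intracellular AMP and adenosine turnover. The other lists held 11 genes of ATP release and ATP receptors, and 17 genes of the cyclic AMP relay below the receptors. Between AML-conditioned and fresh medium 3 of these 66 rose and 1 fell with limma, or 6.06% against 2.77% of all genes, and the median log2 difference was -0.04, against -0.01 over all genes. One of the 3 that rose was *Nt5e* itself. The share is of few genes, and its distance from that of all genes was not tested.

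In the list of ectonucleotidases and related enzymes no gene other than *Nt5e* passed, and the list's median difference was -0.08. *Entpd5*, an endoplasmic reticulum enzyme that hydrolyses UDP and GDP, was at 7.74 ± 0.18 in AML-conditioned and 7.99 ± 0.15 in fresh medium, a difference of -0.25 (SE 0.09, limma adjusted p = 0.129).

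The intracellular AMP list held the other 2 genes that rose. *Ampd3*, an AMP deaminase that turns AMP into IMP and so takes it from the pool of adenosine precursors, had log2 levels of 6.17, 6.09, 6.07, 6.13, 6.22, 5.29 and 5.43 on AML arrays 1 to 7, against a lowest, median and highest value of 4.76, 5.34 and 5.66 in fresh medium. In 5 of 7 AML arrays *Ampd3* was above the fresh-medium range, and replicates 6 and 7, which also had the lowest *Nt5e* of their medium, were inside it. It rose by 0.59 (SE 0.15, limma adjusted p = 0.0279), and it also rose relative to DC-conditioned medium, by 0.59 (SE 0.15, adjusted p = 0.0299). The second call ended without any 1 of AML replicates 1 to 5 or DC replicates 1, 3, 4 and 7 (adjusted p up to 0.0855), and without AML replicates 4 and 5 together the difference was 0.48 (adjusted p = 0.228). *Ahcyl2*, a relative of the enzyme that splits S-adenosylhomocysteine into adenosine and homocysteine, rose by 0.55 (SE 0.15, limma adjusted p = 0.0487), with its highest values on AML replicates 4 and 5, at 7.58 and 7.86. *Ahcy*, that enzyme itself, differed by -0.08 (SE 0.08, adjusted p = 0.661).

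*Panx1*, which encodes the pannexin channel that lets ATP out of cells, fell by 0.33 on the log2 scale (SE 0.09, limma adjusted p = 0.0384). It averaged 9.16 ± 0.24 in AML-conditioned and 9.50 ± 0.13 in fresh medium, and AML replicates 4 and 5 were lowest, at 8.81 and 8.87. When AML replicates 4 and 5 were left out, *Ampd3* differed by 0.49 (adjusted p = 0.199), *Ahcyl2* by 0.29 (adjusted p = 0.289) and *Panx1* by -0.20 (adjusted p = 0.260), and none passed. The calls also ended on leaving out single arrays: that of *Ampd3* without any 1 of AML replicates 1 to 5 or fresh-medium replicates 5 and 6 (0.50 to 0.57, adjusted p up to 0.0794), and that of *Panx1* without any 1 of AML replicates 1, 2, 4 and 5 or fresh-medium replicates 1 to 5 (adjusted p up to 0.109). *Ahcyl2* kept its call in 6 of 21 such fits and lost it without AML replicates 2, 4 or 5, fresh-medium replicates 1, 2, 3, 4 or 6, or any DC array (adjusted p up to 0.125).

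No gene of adenosine removal passed. The nucleoside transporter genes *Slc29a1* and *Slc29a2*, whose products ENT1 and ENT2 carry adenosine across the membrane, were at 7.13 ± 0.26 and 5.45 ± 0.38 in AML-conditioned medium, against 6.78 ± 0.12 and 5.06 ± 0.22 in fresh medium. These are differences of 0.35 (SE 0.11, limma adjusted p = 0.0762) and 0.39 (SE 0.13, adjusted p = 0.111), which without AML replicates 4 and 5 were 0.22 (adjusted p = 0.431) and 0.20 (adjusted p = 0.564). *Pnp*, which acts after adenosine deaminase and breaks down inosine, differed by -0.29 (SE 0.12, adjusted p = 0.190), and by -0.12 without those arrays (adjusted p = 0.725). *Dpp4*, whose product CD26 anchors adenosine deaminase on human T cells, differed by -0.15 (SE 0.09, adjusted p = 0.425). *Adk*, the kinase that returns adenosine to AMP, differed by 0.01 (SE 0.09, adjusted p = 0.980).

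In the cyclic AMP relay none of 17 measured genes passed, with a median difference of -0.08. *Pde4b*, a phosphodiesterase that degrades cyclic AMP, averaged 9.36 ± 0.17 in AML-conditioned and 9.33 ± 0.15 in fresh medium, a difference of 0.03 (SE 0.10, limma adjusted p = 0.940).

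Between AML-conditioned and DC-conditioned medium 1 of the 66 genes (*Ampd3*) rose and 0 fell, or 1.52% against 2.39% of all genes. *Ahcyl2*, at 0.55 (adjusted p = 0.0535), and *Panx1*, at -0.32 (adjusted p = 0.0509), missed the threshold, and without AML replicates 4 and 5 they were at 0.29 (adjusted p = 0.340) and -0.19 (adjusted p = 0.362). Between DC-conditioned and fresh medium limma called 0 of the 66. There *Ampd3* differed by 0.01, *Ahcyl2* by 0.00352 and *Panx1* by -0.01, while *Adk* was at 8.36 ± 0.10 in DC-conditioned and 8.14 ± 0.21 in fresh medium (0.22, SE 0.09, adjusted p = 0.744).

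**Figure D4:**
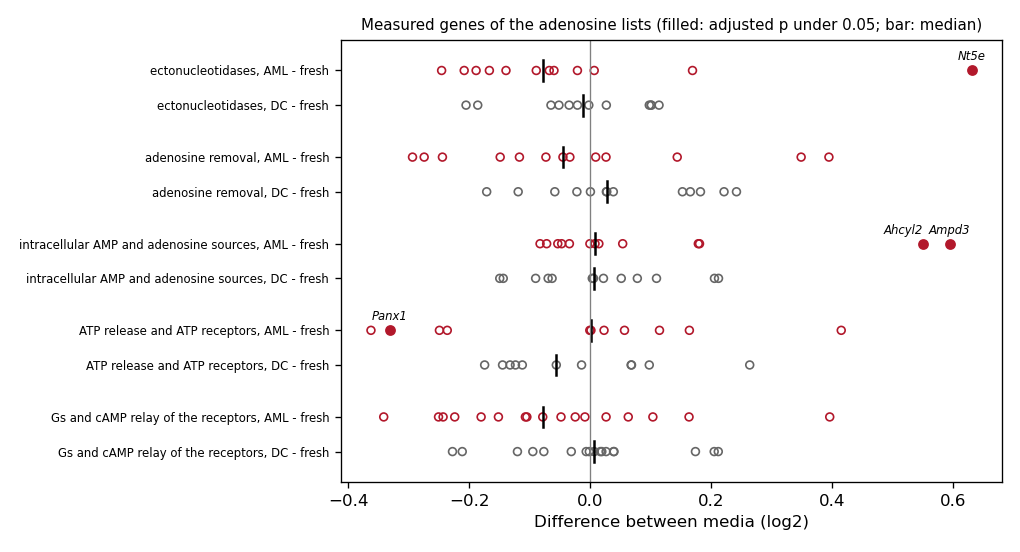
Difference between media (log2, x axis) of the 66 measured genes in 5 adenosine lists (rows), for AML-conditioned minus fresh medium in red and DC-conditioned minus fresh medium in grey, with the list median as a bar. The list labelled as sources also holds AMP deaminases. Filled points passed an adjusted p of 0.05 with limma: *Nt5e*, *Ahcyl2* and *Ampd3* rose and *Panx1* fell, and no grey point is filled.

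Genes with the most similar pattern over the 21 arrays were picked for each of the 3 genes by Pearson correlation among 17040 named genes, and the correlations are given without a test because the arrays share media. For *Nt5e* they were *Lta*, which encodes the cytokine lymphotoxin alpha (r = 0.91), *H2-DMb2*, a chain of the MHC class II peptide loader (r = 0.91), and *Itga6*, an integrin chain (r = 0.89). Over the 19 arrays without AML replicates 4 and 5 they were at 0.78, 0.77 and 0.75. For *Entpd1* the closest were *Crybg1* (r = 0.91), *Cabcoco1* (r = 0.91) and the clathrin light chain gene *Clta* (r = 0.91), which dropped to 0.61, 0.70 and 0.68 without those arrays. For *Ada* they were *Jmjd6*, a Jumonji-domain oxygenase (r = 0.92), *Actn4*, an actin cross-linker (r = 0.91), and *Got2*, the mitochondrial aspartate aminotransferase (r = 0.90), at 0.87, 0.86 and 0.88 without them.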

How the data were processed

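Expression was deposited on the log2 scale, 1 value per transcript cluster and array. The authors used the R package oligo and its RMA method, per the submitters' processing notes, and no versions are given in the sources used here. RMA includes background correction, quantile normalization and probe summary, and it compresses differences at low levels. Amplification and labelling used the Affymetrix WT Pico kit, per the labels' protocols. The platform annotation gave 1 symbol for 19572 of 22203 transcript clusters, several for 0 and none for 2631. Where several clusters shared a symbol (55 symbols), that with the highest mean was kept, which left 19505 genes with no filter on level.

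A linear model with limma 3.58.1 in R 4.3.3 covered all 21 arrays without covariates (lmFit, eBayes), with 1 spread per gene for the 3 media and two-sided tests. P-values were Benjamini-Hochberg adjusted over all genes, with 0.05 as the threshold of a call. The procedure was tested on simulated data. With 7 arrays per medium the median SE of a difference was 0.0937. Members, lists and alternatives were chosen with earlier results of these data known. Named genes are the 5 listed, the called genes of the adenosine lists, others of those lists fixed by name, and the 3 most correlated with each measured gene; *Ahcy* and the marker genes were added after their values were seen. *Adora1*, *Adora3*, *Cd38* and *Crem*, also fixed by name, are not analysed here. Start regions come from RefSeq.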

Additional observations from a re-analysis of the deposited data

How the results depend on the processing

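Over 34 alternatives *Nt5e* between AML-conditioned and fresh medium kept its direction (0.41 to 0.71 on the log2 scale) and lost its limma call in 5: an unmoderated test per gene (0.63, adjusted p = 0.0521), the exact permutation test (0.63, adjusted p = 0.0932), without AML replicates 4 and 5 (0.41), and without either of them alone (leaving out single arrays gave 0.53 to 0.71). Same-numbered arrays of different media had deviations correlated over 0.1 in 13 of 21 pairs (-0.11 to 0.36), and since not every pair was over 0.1 the numbers were not taken as pairs. An array's closest match in another medium had its own number in 18 of 42 cases, against 6 if numbers were unrelated, a hint from the data that numbers share something. The 6 treats all 7 numbers as interchangeable, so likeness within replicates 1 to 3 or 4 to 7 would also raise the count. Under a replicate block *Nt5e* passed (0.63, adjusted p = 0.0292), and no call of the 3 genes changed. Between AML-conditioned and DC-conditioned medium *Nt5e* passed in 9 of 34: at 0.53 with the replicate number as a random effect, a block for both sets of replicates, a filter at the 25th percentile, or trend and robust estimation, at 0.54 after further quantile normalization, and without AML replicate 6 or 7 or DC replicate 6 or 7 (0.43 to 0.60 over single arrays), while its lowest value of the 34 was 0.31, without AML replicates 4 and 5. Without AML replicates 4 and 5 *Entpd1* turned to 0.115 against fresh and 0.0881 against DC-conditioned medium. *Ada* after AML-conditioned medium kept its direction and did not pass in any of the 34 (lowest adjusted p = 0.0542). Small uncalled differences of DC-conditioned minus fresh medium changed sign: *Ada* was 0.00989 with arrays centred on their median, 0.0432 with array weights and -0.0619 to 0.0196 on leaving out single arrays, and *Entpd1* -0.0328 to 0.0681. Of the 66 pathway genes, between AML-conditioned and fresh medium 0 were higher and 0 lower with the unmoderated test, the exact test or without AML replicates 4 and 5, and 1 higher and 0 lower with both groups alone. None was lower with centred arrays or array weights, 2 were with the replicate block, the filter or trend and robust estimation, and 3 with the random effect or the block for sets; single arrays gave 0 to 4 higher and 0 to 2 lower. Between AML-conditioned and DC-conditioned medium 0 were higher with the unmoderated test, the exact test or without AML replicates 4 and 5, 2 with the replicate block, and 3 with the random effect, the block for sets, quantile normalization, the filter or trend and robust estimation. There 1 was lower with the unmoderated test and 2 with the random effect, the block for sets, the filter or trend and robust estimation; single arrays gave 0 to 3 higher and 0 to 2 lower. Over all genes, the 541 calls against fresh medium became 1012 with the replicate block, 1026 with the block for sets, 246 with both groups alone, 0 with the exact test, 111 without AML replicates 4 and 5, 249 and 218 without either, and 299 and 341 without fresh-medium replicate 2 or 4. The 466 calls against DC-conditioned medium became 784, 797, 249, 0 and 92 under the first 5 of these, 220 and 242 without AML replicate 4 or 5, 784 without AML replicate 6, and 308 and 289 without DC replicate 4 or 7. Apart from the smaller number of samples in some fits, the causes were not tested.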

Other observations

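*Pde3b* and *Sik1*, both of the cyclic AMP relay list and chosen after their values were seen, were lower on most AML arrays without passing. The 17 measured genes of that list differed by -0.34 to 0.40 between AML-conditioned and fresh medium, with a median of -0.08. The largest difference of the list was thus a rise. How many of all genes have 6 of 7 AML arrays below every fresh-medium array was not counted. *Pde3b*, a phosphodiesterase that degrades cyclic AMP, averaged 10.77 ± 0.16 in AML-conditioned and 11.02 ± 0.06 in fresh medium (SD, n = 7 each), and 6 of 7 AML arrays lay below every fresh-medium array. The difference was -0.25 on the log2 scale (SE 0.07, limma adjusted p = 0.0612), and against DC-conditioned medium it was -0.27 (SE 0.07, adjusted p = 0.0504). *Sik1*, a kinase gene that cyclic AMP induces, averaged 8.28 ± 0.19 in AML-conditioned and 8.62 ± 0.15 in fresh medium, a difference of -0.34 (SE 0.10, adjusted p = 0.0712), again with 6 of 7 AML arrays below every fresh-medium array. In DC-conditioned medium *Sik1* averaged 8.41 ± 0.25, and 5 of 7 DC arrays lay below every fresh-medium array (difference -0.21, SE 0.10, adjusted p = 0.777). On leaving out AML replicates 4 and 5, the differences between AML-conditioned and fresh medium were -0.17 for *Pde3b* (adjusted p = 0.374) and -0.28 for *Sik1* (adjusted p = 0.346). Against DC-conditioned medium *Pde3b* then differed by -0.19 (limma adjusted p = 0.355).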
